A study of Mus musculus with 2 samples.

Results

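The genes described here encode 6 S100 proteins (S100a4, S100a6, S100a10, S100a11, S100a14 and S100g) and 4 annexins (Anxa1, Anxa2, Anxa3 and Anxa5). These 10 genes were taken by symbol from the 28692 gene rows of the study's count tables, and each symbol matched 1 row. Epcam+ cells (Epcam is an adhesion protein of epithelial cells) were isolated by flow cytometry from lungs of adult mice of the C57BL/6 strain, and single cells were profiled in droplets by tagging the 3' end of each transcript. There was 1 library from Control lungs and 1 library made after an injury abbreviated in the labels as NAPH. Both groups share strain, tissue and sort. The sources used here give neither the meaning of the abbreviation nor its dose, the interval before harvest, or how many animals were used or pooled.

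S100 proteins are small calcium sensors that carry a pair of EF-hand loops, mostly work as dimers and dock onto target proteins when calcium rises. Annexins are calcium-dependent proteins that bind acidic membrane phospholipids and act in membrane repair, vesicle traffic and the control of inflammation. The families meet in complexes: S100a10 joins Anxa2 under the plasma membrane, and S100a11 binds Anxa1. In the lung, S100g is known as a gene of AT2 cells, which make surfactant in the alveolus, and several other members are known from epithelium under stress and from leukocytes.

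Cells were grouped by marker RNA per 10000 unique molecular identifiers (UMIs) of the cell. AT2-gated cells held at least 500 Sftpc UMIs per 10000 and were split at an Areg plus Sprr1a level of 5 per 10000. Areg, an EGF receptor ligand, and Sprr1a, a cornified-envelope protein, are known from alveolar cells in transition after injury. Secretory-gated cells held at least 1000 Scgb1a1 UMIs per 10000 and ciliated-gated cells at least 10 of Foxj1, Ccdc153 and Tmem212 together. Myeloid-gated cells passed none of these gates and held at least 2 UMIs of Ptprc, Coro1a and Cd52. Filters and doublet removal left 3211 cells of the Control and 3573 of the NAPH library, of 3298 and 3685 barcodes with 41699755 and 38497783 UMIs. Control and NAPH held 1766 and 2347 AT2-gated cells below the split, 27 and 155 above it, 749 and 186 secretory-gated, 187 and 198 ciliated-gated and 447 and 505 myeloid-gated cells. Median UMIs per cell ran from 5314 in Control ciliated-gated to 29298 in Control secretory-gated cells, and 14 cell barcodes occurred in both libraries. The ciliated marker list (6 genes) summed to 9098 and 7398 CPM in ciliated-gated cells and to at most 52.7 CPM in the other gates. Other lists were high as well. The secretory list summed to 34664 and 21074 CPM in ciliated-gated cells, above the ciliated list. In NAPH myeloid-gated cells the B cell list (5657 CPM) was above the leukocyte list (3334 CPM). Cells with more than 1 epithelial gate (10 and 15) and cells with no gate (25 and 167) were left out of the main values.

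Each group is a single library, without replicates and so without a test between groups, and each difference is between these libraries. A CPM level is a gene's summed UMIs in a gate per 1000000 UMIs of that gate. Levels are not scaled by transcript length because the 3' tag is counted once per molecule. Ratios are CPM ratios divided by the median ratio of all genes with at least 50 UMIs over both sums, and a gene past 1.5-fold was called higher or lower. Genes that reach this minimum are referred to as tested, although no statistical test was made. Ranges in parentheses are exact 95% Poisson intervals, which cover counting error only.

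Of the 6 S100 genes, 5 lie in the S100 gene cluster of chromosome 3, where 14 S100 genes span 90511034 to 93564643 in mm10. S100g lies apart on chromosome X (162961992 to 162964599, minus strand), and the annexins are scattered over chromosomes 3, 5, 9 and 19. Promoters of 7 members were matched by symbol in RefSeq (GRCm38.p6). The 250 bases before the annotated start were searched. They are shown 5′ to 3′ on the plus strand, without the bases that GENCODE places in an exon, for S100a4, the myeloid member, for S100a6, the member with the largest differences, and for S100a11 and Anxa2, which hold the AP-1 element. Capitals mark matches of the AP-1 element TGANTCA or of the TATA element TATAAA on either strand.
S100a4, chr3:90603520-90603769: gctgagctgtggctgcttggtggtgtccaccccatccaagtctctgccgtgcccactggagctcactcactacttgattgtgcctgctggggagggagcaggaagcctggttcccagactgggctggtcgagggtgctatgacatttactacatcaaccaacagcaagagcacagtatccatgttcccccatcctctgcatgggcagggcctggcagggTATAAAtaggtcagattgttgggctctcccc
S100a6, chr3:90612644-90612881: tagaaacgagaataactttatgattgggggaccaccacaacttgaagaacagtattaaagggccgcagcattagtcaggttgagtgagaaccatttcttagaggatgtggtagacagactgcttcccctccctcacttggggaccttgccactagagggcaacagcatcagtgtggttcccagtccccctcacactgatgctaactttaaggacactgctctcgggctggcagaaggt
S100a11, chr3:93520246-93520487: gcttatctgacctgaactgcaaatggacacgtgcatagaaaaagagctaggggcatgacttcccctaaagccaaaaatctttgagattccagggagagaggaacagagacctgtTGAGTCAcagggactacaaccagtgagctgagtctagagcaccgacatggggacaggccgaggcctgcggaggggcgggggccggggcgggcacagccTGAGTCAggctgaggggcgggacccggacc
Anxa2, chr9:69453433-69453619: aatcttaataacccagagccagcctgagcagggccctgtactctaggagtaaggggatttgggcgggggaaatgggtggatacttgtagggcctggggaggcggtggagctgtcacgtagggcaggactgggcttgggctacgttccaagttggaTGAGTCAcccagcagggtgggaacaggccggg
The AP-1 element occurred in 2 of the 7 member promoters and in 6.75% of 32851 RefSeq promoter windows of the same length. S100a11 held it at 2 places, 136 to 130 and 38 to 32 bases before the start, and Anxa2 held it 95 to 89 bases before the start. The TATA element occurred in 3 of the 7 and in 12.4% of all windows. S100a4 held it 31 to 26 bases before the start, and the matches of Anxa1 and Anxa2 lie in bases not shown. No match in S100a6 says only that these letters are not in this window. Further motifs searched on both strands were the Sp1 element GGGCGG (S100a11 and Anxa2, 32.7% of all windows), the TEAD element GGAATG (Anxa1, 12.6%) and the antioxidant response element TGACNNNGC (S100g, 10.2%).

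Each gate had its own makeup of S100 and annexin RNA. S100g made up 66.1% of the UMIs of the 6 S100 genes in Control AT2-gated cells below the split and 68.7% in NAPH. In secretory-gated cells S100a11 made up 79.0% and 69.6%. Ciliated-gated cells changed their leading member, from S100a11 at 75.9% in Control to S100a6 at 60.6% in NAPH. Over the same cells the 6 S100 genes together made up 0.421% of all UMIs in Control and 1.07% in NAPH. Among the annexins, Anxa2 held the most UMIs in 9 of the 10 gate and library sums, and Anxa5 in the Control AT2 cells above the split.

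**Figure D1:**
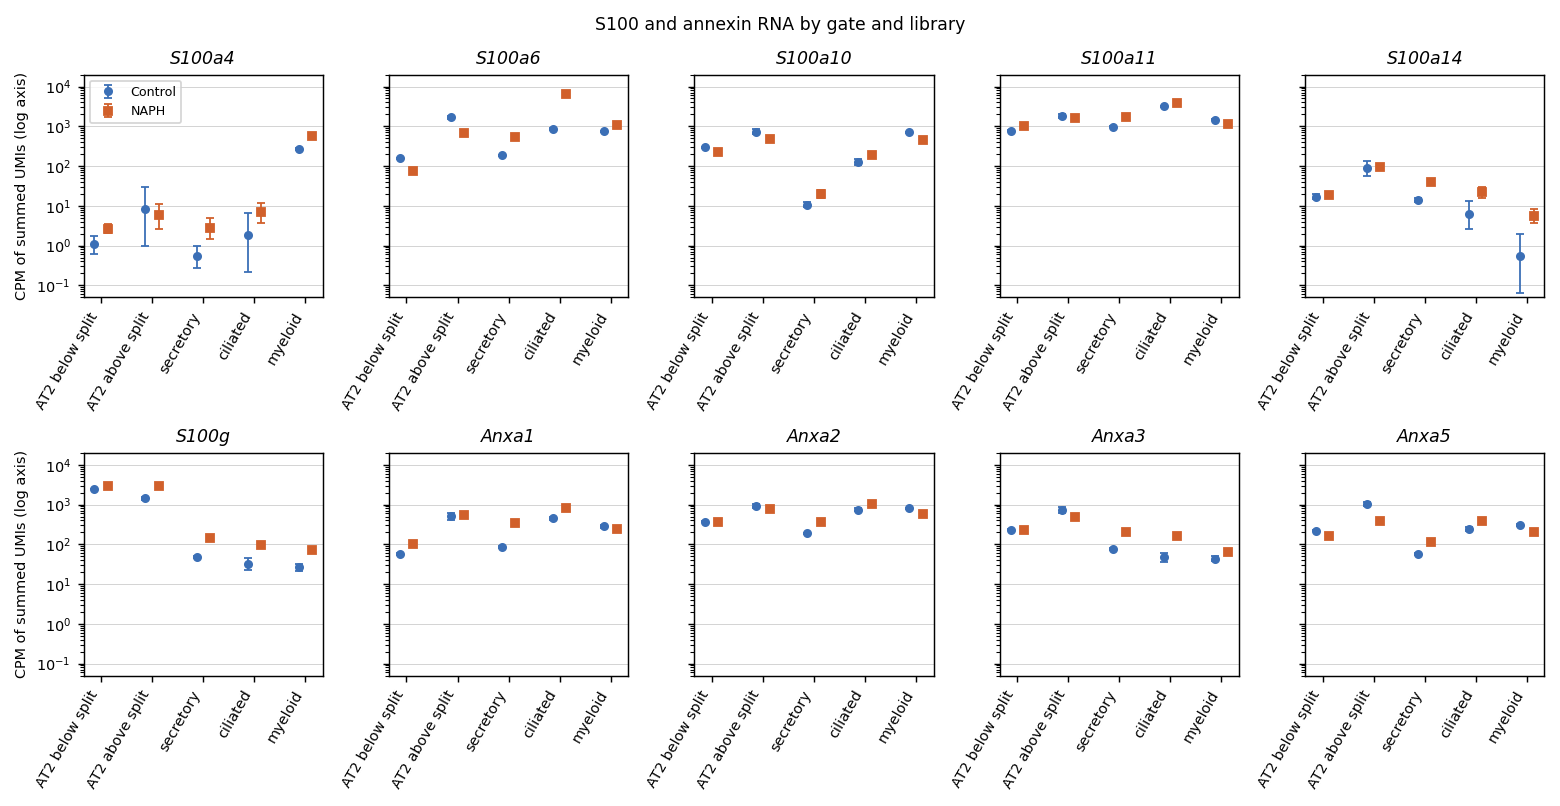
Level of each S100 and annexin gene (CPM of summed UMIs, log axis) in 5 gates for the Control library (blue circles) and the NAPH library (orange squares), with exact 95% Poisson intervals that cover counting error only. S100a4 stands at 269 and 578 CPM in myeloid-gated cells and at most 8.25 CPM in the epithelial gates, S100g is highest in AT2-gated cells, and S100a6 in ciliated-gated cells differs most between the libraries.

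S100a11 (chromosome 3, 93520488 to 93526287, plus strand), an Anxa1 partner in membrane and cytoskeleton control, was the S100 gene with the highest level in secretory-gated cells and one of the most abundant in the other gates. In Control it ran from 779 CPM in AT2 cells below the split to 3194 CPM in ciliated-gated cells. In NAPH the range was 1004 to 3905 CPM with the same gates at the ends. The NAPH levels of secretory-gated cells and AT2 cells above the split, 1702 and 1607 CPM, had overlapping intervals, as the only neighbours in the order that did in either library.

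S100a6 (chromosome 3, 90612882 to 90624181, plus strand), also called calcyclin and a binder of Cacybp and Sugt1, changed its order of gates between the libraries. Control levels ordered from AT2 cells above the split (1671 CPM) through ciliated-gated (850 CPM), myeloid-gated (753 CPM) and secretory-gated cells (187 CPM) to AT2 cells below the split (156 CPM). In NAPH the order was ciliated-gated (6505 CPM), myeloid-gated (1060 CPM), AT2 above the split (681 CPM), secretory-gated (539 CPM) and AT2 below the split (76.2 CPM). No neighbours in either order overlapped within counting error.

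S100a10 (chromosome 3, 93555080 to 93564643, plus strand), the Anxa2 partner whose EF-hands no longer bind calcium, was highest in AT2 cells above the split and in myeloid-gated cells. Control levels there were 726 and 705 CPM and NAPH levels 479 and 448 CPM, each pair with overlapping intervals. Secretory-gated cells held 10.6 and 19.9 CPM, of which 47.0% and 37.0% matched the level that would accompany the marker RNA of the other gates found in them. That accompanying level is a tracer's level in the gate over its level in the tracer's own gate, times the member's level in that gate, summed over the other gates. The tracers are Sftpc for AT2, Scgb1a1 for secretory, Ccdc153 for ciliated and Cd52 for myeloid RNA. Its partner Anxa2 (chromosome 9, 69453620 to 69491795, plus strand), which links membranes to actin and takes part in plasmin formation, was present in every gate. Anxa2 ran from 189 CPM in secretory-gated to 933 CPM in AT2 cells above the split in Control, and from 354 CPM in secretory-gated to 1048 CPM in ciliated-gated cells in NAPH. Across the 10 gate and library sums the Pearson correlation of log2(CPM + 1) was 0.73 between S100a10 and Anxa2, 0.81 between S100a10 and Anxa5, and 0.88 between Anxa2 and Anxa5. The points share the same pair of libraries, so these values are descriptions.

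S100a14 (chromosome 3, 90526856 to 90528837, plus strand), an epithelial S100 gene, was low in all gates. It reached 90.8 and 95.3 CPM in AT2 cells above the split and at most 39.3 CPM elsewhere. In cells with no gate but with at least 3 UMIs of the basal keratins Krt5, Krt14 and Krt15 it reached 238 CPM in Control (9 cells) and 467 CPM in NAPH (32 cells). Those keratin-positive cells also held S100a6 at 5746 and 2855 CPM and Anxa1 at 1090 and 1475 CPM. In Control these 3 levels were above those of all 5 gates. The fibroblast list, there from 1 of 3 genes, stood at 1744 and 104 CPM in the keratin-positive cells, and its part was not tested. In NAPH the S100a6 level was below that of ciliated-gated cells, and those of S100a14 and Anxa1 were above all 5 gates.

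S100g, a vitamin D-dependent calcium buffer of absorptive epithelia, marked AT2 cells. Its levels below and above the split were 2439 and 1432 CPM in Control and 2910 and 2886 CPM in NAPH. The NAPH pair had overlapping intervals and the Control pair did not. The other gates held 26.3 to 48.5 CPM in Control and 73.5 to 142 CPM in NAPH. In ciliated-gated and myeloid-gated cells 86.2% to 88.9% of these levels matched the accompanying level of other gates' RNA, mainly AT2 RNA, and in secretory-gated cells 52.1% and 48.9%.

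S100a4 (chromosome 3, 90603771 to 90606045, plus strand), a regulator of non-muscle myosin known from mobile leukocytes and fibroblasts, was a myeloid gene here. Myeloid-gated cells held 269 CPM in Control and 578 CPM in NAPH. The epithelial gates held 0.532 to 8.25 CPM, resting on 2 to 61 UMIs each. A UMI was found in 29.5% and 51.7% of myeloid-gated cells thinned to 3000 UMIs each, against 0.0566% and 0.298% of AT2 cells below the split. Median depths were 7930 and 7914 UMIs in myeloid-gated cells and 7671.5 and 9538 in those AT2 cells. The fibroblast list (3 genes) summed to 0.798 and 17.6 CPM in the myeloid gate, and its part in the S100a4 level was not tested.

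Anxa1 (chromosome 19, 20373428 to 20390944, minus strand), an inhibitor of inflammation that signals through formyl peptide receptors, was lowest in AT2 cells below the split at 57.0 and 102 CPM. It was highest in AT2 cells above the split in Control (503 CPM), where the interval overlapped that of ciliated-gated cells (447 CPM). That Control level leaned on 1 of 27 cells, which held 32.8% of the Anxa1 UMIs. In NAPH Anxa1 was highest in ciliated-gated cells (814 CPM). Anxa3 (chromosome 5, 96793339 to 96845966, plus strand) followed the alveolar gates, with 233 and 735 CPM below and above the split in Control and 232 and 494 CPM in NAPH. Myeloid-gated cells held 43.9 and 62.5 CPM, and in Control that interval overlapped the one of ciliated-gated cells (47.4 CPM). Anxa5 (chromosome 3, 36448923 to 36475894, minus strand), a binder of phosphatidylserine exposed on dying cells, ran from 56.7 CPM in secretory-gated cells to 1019 CPM in AT2 cells above the split in Control. In NAPH it ran from 113 CPM in secretory-gated to 387 CPM in ciliated-gated cells, the latter overlapping AT2 cells above the split (380 CPM). S100a4, Anxa2, Anxa3 and Anxa5 overlap genes on their own strand (Gm42674, Mir3109, Gm42603 and Mir7009). S100g, Anxa1 and Anxa2 overlap genes on the other strand (Ctps2, 1500015L24Rik and Gm16144). The sources used here do not say how reads of such pairs were split.

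Ciliated-gated cells, the cells that drive mucus along the airway, held the largest called difference of a member between the libraries. S100a6 measured 850 CPM (796 to 906) in Control and 6505 CPM (6390 to 6621) in NAPH, a ratio of 7.33 (6.86 to 7.84). That was the 24th highest of 7065 ratios. Of the 8 members tested, 5 were called higher in NAPH and none lower, where 12.6% of all genes tested were called higher and 7.39% lower. Anxa3 was 3.22 times as high (2.39 to 4.4), at 47.4 and 159 CPM. S100g was 2.89 times as high (2.0 to 4.27), Anxa1 1.74 times (1.57 to 1.93) and Anxa5 1.51 times (1.31 to 1.74). S100a10, S100a11 and Anxa2 stayed within 1.5-fold, with ratios of 1.45, 1.17 and 1.35. S100a4 and S100a14 had under 50 UMIs and were not called. The S100g level in this gate lay close to the accompanying level, 28.3 CPM of 31.9 in Control and 83.8 CPM of 96.1 in NAPH. For S100a6 the accompanying level was 11.5 and 21.6 CPM.

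**Figure D2:**
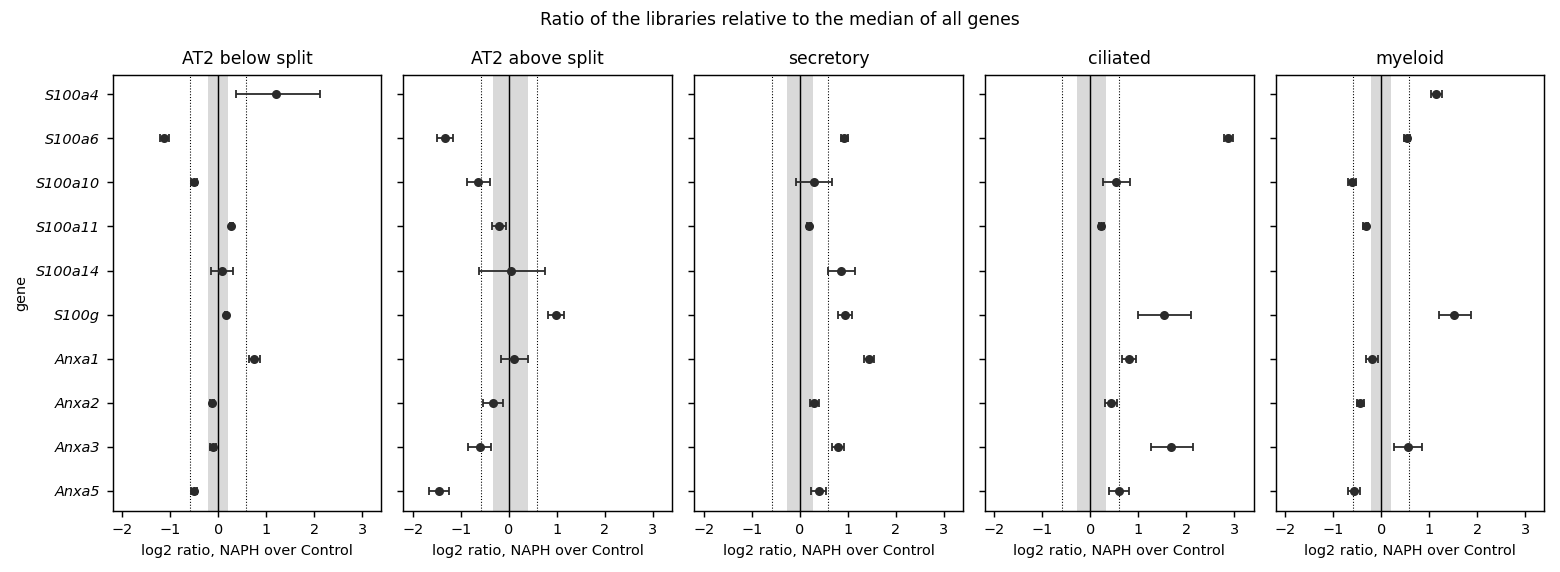
Log2 ratio of NAPH over Control, relative to the median of all genes, for each tested member in 5 gates, with exact 95% Poisson intervals (counting error only). The grey band holds the middle 50% of all genes tested and dotted lines mark 1.5-fold. S100a6 lies at 2.87 in ciliated-gated cells and at -1.12 and -1.33 in AT2 cells below and above the split.

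The S100a6 difference in ciliated-gated cells was spread over most of the cells. The median cell held 0 per 10000 UMIs in Control and 36.2 in NAPH. The upper quartile was 5.64 per 10000 in Control and the lower quartile 11.7 in NAPH, so the interquartile ranges did not overlap. With each cell thinned to 3000 UMIs, 42.2% of Control and 93.4% of NAPH ciliated-gated cells had a UMI, and 49.7% and 97.5% without thinning. In AT2 cells below the split, the gate with the lowest S100a6 level, the thinned shares were 12.7% and 12.4%. Median depths were 5314 and 7969 UMIs in ciliated-gated cells and 7671.5 and 9538 in those AT2 cells. Several marker lists of other cells moved in the same gate. The transitional list (7 of 7 genes with UMIs in both libraries) summed to 1033 and 2045 CPM, the goblet list (4 and 5 of 5, Muc5ac at 0 in Control) to 189 and 807 CPM and the AT2 list (8 of 8) to 3828 and 8865 CPM. The secretory list (6 of 6) was lower in NAPH by its summed level. The part of these RNAs in the S100a6 difference was not tested, apart from the accompanying levels above. In NAPH, S100a6 was 5606 CPM in the 166 ciliated-gated cells under 100 Scgb1a1 UMIs per 10000, 8487 CPM in 22 cells at 100 to under 300 and 14025 CPM in 10 cells at 300 to under 1000. In Control the upper bins held 917 CPM (161 cells) and 572 CPM (26 cells), and none of the Control cells fell under 100. Scgb1a1 also stood at 13768 CPM in Control and 2754 CPM in NAPH myeloid-gated cells. The bins are therefore not matched between the libraries, and the part of free Scgb1a1 RNA in them was not tested. Over the 198 NAPH ciliated-gated cells the Spearman correlation of S100a6 was 0.41 with Anxa5, 0.41 with Anxa3 and 0.40 with S100a11, and -0.03 with the cell's total UMIs. The 187 Control cells gave 0.20, 0.20 and 0.24, and cells of a library share its depth and free RNA.

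**Figure D3:**
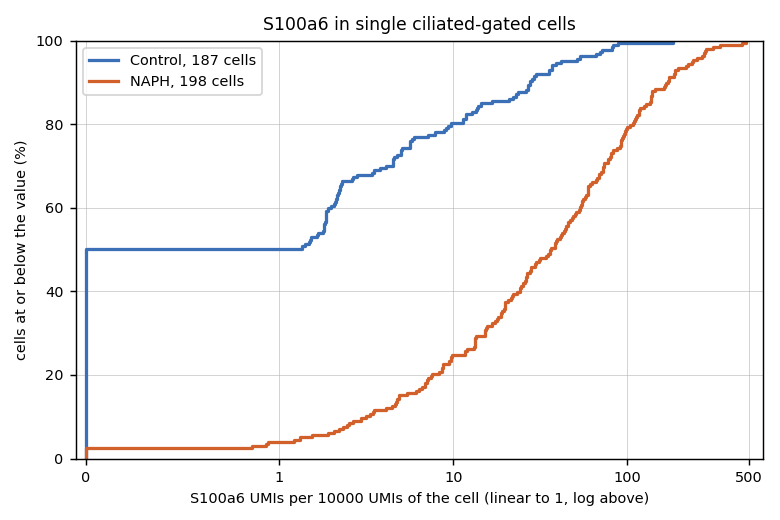
Cumulative share of ciliated-gated cells (percent, vertical axis) at or below a given S100a6 level (UMIs per 10000 UMIs of the cell, linear to 1 and log above) in the Control (blue, 187 cells) and NAPH (orange, 198 cells) libraries. The NAPH curve lies to the right throughout, with medians of 0 and 36.2 per 10000.

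In secretory-gated cells, the airway cells rich in Scgb1a1, 5 of 9 members tested were called higher in NAPH and none lower, where 9.71% of all genes tested were called higher and 10.3% lower. Anxa1 led with 84.5 CPM in Control and 348 CPM in NAPH, a ratio of 2.72 (2.54 to 2.92). S100g was 1.93 times as high (1.74 to 2.14), S100a6 1.91 times (1.81 to 2.01), S100a14 1.83 times (1.5 to 2.22) and Anxa3 1.74 times (1.60 to 1.90). Anxa5, Anxa2, S100a10 and S100a11 had ratios of 1.32, 1.24, 1.24 and 1.15. Lists of other cells stood higher in NAPH in this gate: the goblet list at 10469 and 31050 CPM, the AT2 list at 9960 and 22956 CPM, the variant secretory list (Upk3a and Spink5) at 7.50 and 412 CPM and the mesothelial list at 3.14 and 200 CPM, with Upk3b and Lrrn4 at 0 in both libraries. Their part in the member ratios was not tested. Scgb1a1 itself stood at 597588 and 358446 CPM in this gate, and the median of all genes shifted by 0.60 on the log2 scale. Uncentred CPM ratios of every member were therefore higher by that amount, and 9 members then passed 1.5-fold, as did 51.4% of all genes.

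The S100a6 ratio in secretory-gated cells differed between summed and thinned counts and between sets of cells. With every cell thinned to 3000 UMIs its log2 ratio was 0.23, against 0.93 from the summed UMIs, and its call was lost, which leaves 4 members called higher. In Control, 131 of 749 secretory-gated cells had at least 5 S100a6 UMIs and held 93.0% of its UMIs. Their goblet list (Muc5b, Muc5ac, Bpifb1, Scgb3a1 and Tff2) summed to 53163 CPM, against 2044 CPM in the other 618 cells. In NAPH the 70 such cells held 36044 CPM of the goblet list and the other 116 cells 27188 CPM. Cells with at least 2 Upk3a UMIs, a gene of variant secretory cells, numbered 16 and 72 and held S100a6 at 276 and 377 CPM, a ratio of 0.87 (0.72 to 1.07). The remaining 733 and 114 cells held 185 and 666 CPM, a ratio of 2.47 (2.33 to 2.62). Anxa1 was higher in NAPH with and without Upk3a, by 1.88 times (1.46 to 2.45) and 2.30 times (2.10 to 2.52).

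AT2 cells below the split made up 55% of the Control and 65.7% of the NAPH cells. Of 10 members tested 2 were called higher and 1 lower in NAPH, where 6.56% of all genes tested were called higher and 6.51% lower. S100a6 measured 156 CPM in Control against 76.2 CPM in NAPH, a ratio of 0.459 (0.431 to 0.489). Its accompanying levels were 7.29 CPM in Control, mainly from secretory RNA, and 19.8 CPM in NAPH, mainly from ciliated RNA. Anxa1 measured 57.0 CPM against 102 CPM, a ratio of 1.68 (1.55 to 1.82). S100a4, at 1.08 and 2.64 CPM from 15 and 61 UMIs, had a ratio of 2.29 (1.29 to 4.34), and its accompanying levels from myeloid RNA were 0.817 and 2.71 CPM. S100a10 and Anxa5 both had ratios of 0.704, S100a11 1.21 and S100g 1.12, while S100a14, Anxa2 and Anxa3 had ratios of 1.05, 0.914 and 0.932. The median log2 ratio of the 10 members was -0.01, where the median of all genes is 0 by centring.

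The S100a6 RNA of AT2 cells below the split came from few cells. In Control 87 of 1766 cells had at least 5 S100a6 UMIs and held 80.3% of its UMIs, and in NAPH 70 of 2347 cells held 57.9%. Those Control cells had more Krt8, a keratin of simple and transitional epithelium (515 against 131 CPM in the remaining cells), and more of the transitional list (952 against 260 CPM). The NAPH cells with at least 5 UMIs stood at 513 against 214 CPM for Krt8. They also carried more of the goblet list (4292 against 148 CPM) and the leukocyte list (138 against 14.5 CPM), whose part was not tested. By Lrg1, a secreted glycoprotein at 195 and 2252 CPM in this gate, S100a6 went down in steps in both libraries. Control cells with no Lrg1 UMI held 215 CPM, those above 0 and under 10 per 10000 held 84.7 CPM and those at 10 or more held 43.5 CPM. The NAPH cells held 221, 114 and 41.2 CPM. Within these Lrg1 bins the ratios of NAPH over Control were 0.95 (0.84 to 1.07), 1.24 (1.11 to 1.39) and 0.87 (0.59 to 1.32), so no bin showed the ratio of the whole gate. Cells at 10 or more numbered 73 of 1766 in Control and 1354 of 2347 in NAPH. Anxa1, in contrast, was higher in NAPH in each bin, with ratios of 2.32, 1.88 and 3.49.

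In AT2 cells above the split, Anxa5 and S100a6 had the lowest ratios of NAPH over Control. Of 9 members tested 1 was called higher and 4 lower in NAPH, where 16.4% of all genes tested were called higher and 12.2% lower. Only 27 Control cells lay here. Anxa5 measured 1019 CPM in Control against 380 CPM in NAPH, a ratio of 0.363 (0.313 to 0.423), and S100a6 1671 CPM against 681 CPM, a ratio of 0.398 (0.354 to 0.447). S100a10 and Anxa3 had ratios of 0.642 (0.544 to 0.762) and 0.656 (0.556 to 0.776), and with TMM scaling both stayed within 1.5-fold (log2 ratios of -0.50 and -0.47), which leaves 2 members called lower. S100g measured 1432 CPM against 2886 CPM, a ratio of 1.97 (1.76 to 2.2). The AT2 list (8 of 8 genes) summed to 238045 and 247315 CPM, the AT1 list (5 and 6 of 7 genes with UMIs) to 2493 and 2195 CPM and the transitional list (7 of 7) to 3079 and 3574 CPM. Lrg1 differed more, at 28.9 CPM in Control and 1951 CPM in NAPH, and the secretory list (6 of 6) summed to 13788 and 5984 CPM. Their part in the member ratios was not tested.

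Within each library the cells above the split held more of nearly all members than the cells below it. The split uses only Areg and Sprr1a, so the members' levels did not set it. The members were chosen with earlier results of these data known, so their counts of calls do not stand for both families. In Control 8 of 9 members tested were called higher above the split and 1 lower, where 21.6% of all genes tested were called higher and 25.8% lower. In NAPH 9 of 10 were called higher and none lower, where 9.63% were called higher and 11.5% lower. The median log2 ratio of the members was 1.5 in Control and 1.04 in NAPH. S100a6 had the largest member ratio in both libraries, 9.66 (8.66 to 10.7) in Control and 8.46 (7.83 to 9.14) in NAPH, ranks 14 of 9155 and 16 of 10190 from the top. A part of the cells carried it: 13 of 27 Control cells above the split had at least 5 S100a6 UMIs and held 96.5% of them, and 35 of 155 NAPH cells held 92.4%. The other 120 NAPH cells stood at 69.5 CPM, where all NAPH cells below the split stood at 76.2 CPM and those of them with under 5 S100a6 UMIs at 33.3 CPM. Accompanying levels of S100a6 in NAPH were 13.4 CPM above the split and 19.8 CPM below it. Anxa1 followed with 7.94 (6.51 to 9.62) and 5.13 (4.74 to 5.55), and S100a14 with 4.79 (2.95 to 7.42) and 4.71 (3.88 to 5.68). Above the split 1 of the 27 Control cells held 32.8% of the Anxa1 UMIs, and the top 8 of 155 NAPH cells held 34.4%. The intervals do not cover such spread between cells. Anxa5 had ratios of 4.19 and 2.19 and Anxa3 of 2.84 and 2.02. The S100a10 and Anxa2 pair had ratios of 2.21 and 2.30 in Control and 2.04 and 2.01 in NAPH. S100g was the exception, at 0.528 (0.474 to 0.587) in Control and 0.938 (0.910 to 0.967) in NAPH. S100a4 was not tested in Control (2 and 15 UMIs), and in NAPH its ratio of 2.08 (0.907 to 4.21) rested on 9 UMIs above the split.

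**Figure D4:**
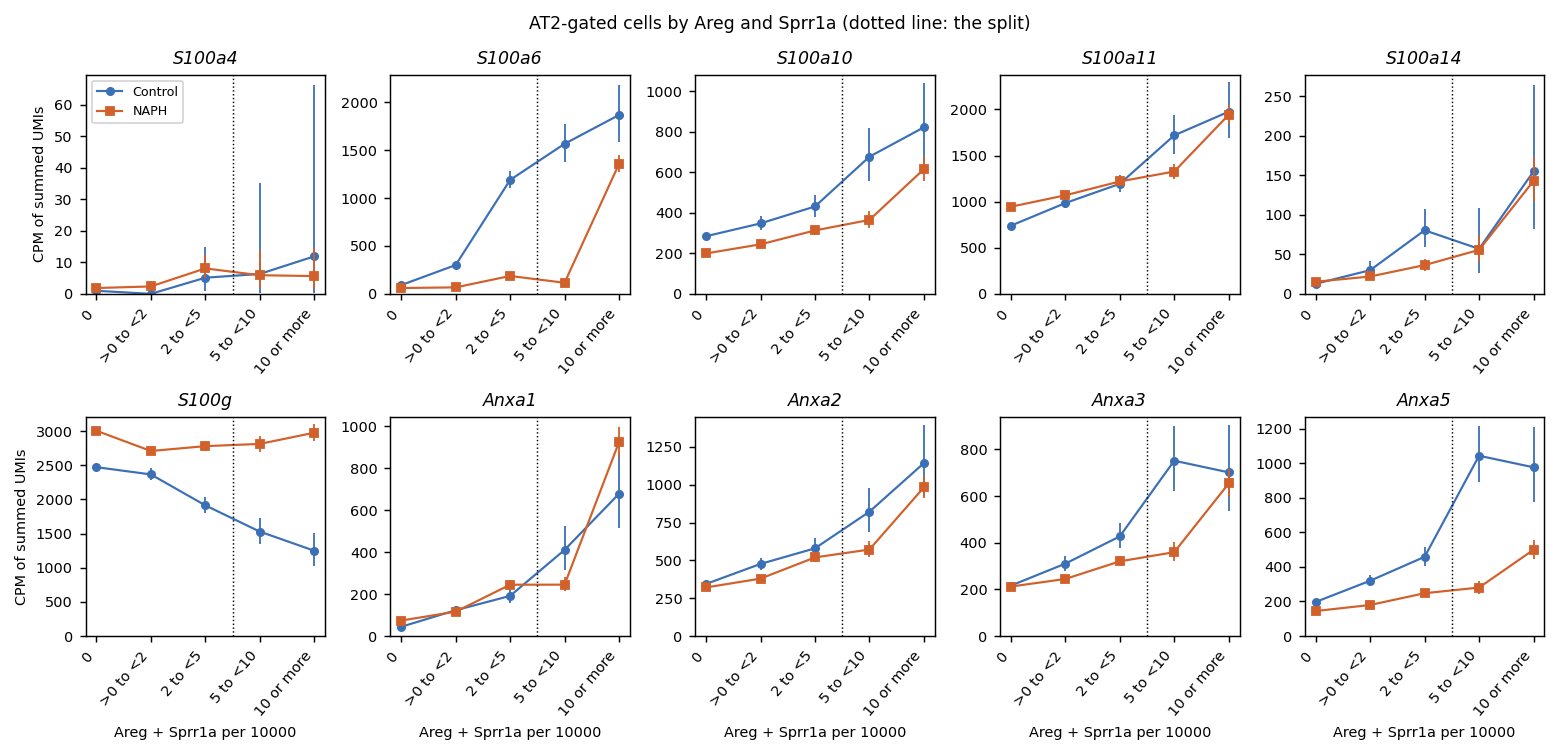
Level of each member (CPM of summed UMIs, axes from 0) in AT2-gated cells binned by Areg plus Sprr1a per 10000 UMIs, for Control (blue) and NAPH (orange), with exact 95% Poisson intervals (counting error only) and the split as a dotted line. S100a6 climbs from 92 to 1868 CPM in Control and stays at or below 187 CPM in NAPH until the last bin, where it reaches 1356 CPM.

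The bins on either side of the split showed how sharply members changed there. Control cells just under it (2 to under 5 per 10000, 67 cells) held 1190 CPM of S100a6 and those just over it (5 to under 10, 17 cells) 1567 CPM. In NAPH the same bins held 187 CPM (235 cells) and 116 CPM (84 cells), and the 71 cells at 10 or more held 1356 CPM. In NAPH the high S100a6 level above the split thus lay in the cells at 10 or more. Anxa1 showed the same step in NAPH, from 245 CPM in the bin at 5 to under 10 to 924 CPM at 10 or more. S100a11 and Anxa2 rose with each bin in both libraries, S100a11 from 739 to 1975 CPM in Control and from 945 to 1941 CPM in NAPH over the 5 bins. In NAPH their largest rise was also into the last bin, from 1327 to 1941 CPM for S100a11 and from 572 to 982 CPM for Anxa2. S100g went down with each bin in Control, from 2471 to 1249 CPM, and stayed between 2708 and 3005 CPM in NAPH. Over the 155 single NAPH cells above the split, which share a library, S100a6 had a Spearman correlation of 0.51 with Anxa2, 0.47 with Anxa5 and 0.44 with Anxa3, and 0.09 with the cell's total UMIs.

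Myeloid-gated cells, the leukocytes that remained in the Epcam sort, had S100a4 as the member with the clearest difference. S100a4 measured 269 CPM (253 to 286) in Control and 578 CPM (556 to 602) in NAPH, a ratio of 2.22 (2.06 to 2.39). Of 9 members tested 2 were called higher and 1 lower in NAPH, where 6.47% of all genes tested were called higher and 6.36% lower. S100g was 2.88 times as high (2.29 to 3.65), with accompanying levels of 22.8 CPM of 26.3 and 63.4 CPM of 73.5. S100a10 was lower, at 705 and 448 CPM, a ratio of 0.656 (0.618 to 0.696). S100a6 at 1.45 and Anxa3 at 1.47 stayed just inside 1.5-fold, and S100a11, Anxa1, Anxa2 and Anxa5 had ratios of 0.8, 0.876, 0.739 and 0.677.

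The myeloid makeup differed between the libraries. By marker sets, cells with at least 3 UMIs of Xcr1, Clec9a and Itgae numbered 161 in Control and 138 in NAPH. Cells of the Cd209a and Mgl2 set numbered 59 and 119, those of the Ccr7, Fscn1 and Il4i1 set 16 and 24, and those of the macrophage set (Marco, Mrc1, Ear1, Ear2 and Fabp1) 94 and 49. The B cell list (1 of 4 genes with UMIs in Control, 4 of 4 in NAPH) summed to 0.532 and 5657 CPM and the T and NK list (1 and 4 of 4) to 0.532 and 50.1 CPM, and their part in the member levels was not tested. S100a4 separated these sets in both libraries. The Cd209a set held 846 and 1167 CPM and the Ccr7 set 1226 and 1526 CPM. The Xcr1 set held 74.4 and 62.8 CPM and the macrophage set 95.9 and 70.9 CPM. The Cd209a set was 11.9 times (9.65 to 14.8) the Xcr1 set in Control and 18.6 times (15 to 23.3) in NAPH, relative to the median of all genes. Within each of these sets the NAPH to Control ratio of S100a4 was smaller than over the whole gate, at 1.36 (1.21 to 1.53) in the Cd209a set, 1.27 (1.04 to 1.56) in the Ccr7 set, 0.86 (0.64 to 1.14) in the Xcr1 set and 0.74 (0.43 to 1.22) in the macrophage set. Another 117 Control and 175 NAPH myeloid-gated cells met none or several of the sets. They count in the whole-gate ratio but in none of the set ratios, and their part was not tested. S100a6 also peaked in the Cd209a set, at 1507 and 1809 CPM, against 523 and 515 CPM in the Xcr1 set.

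**Figure D5:**
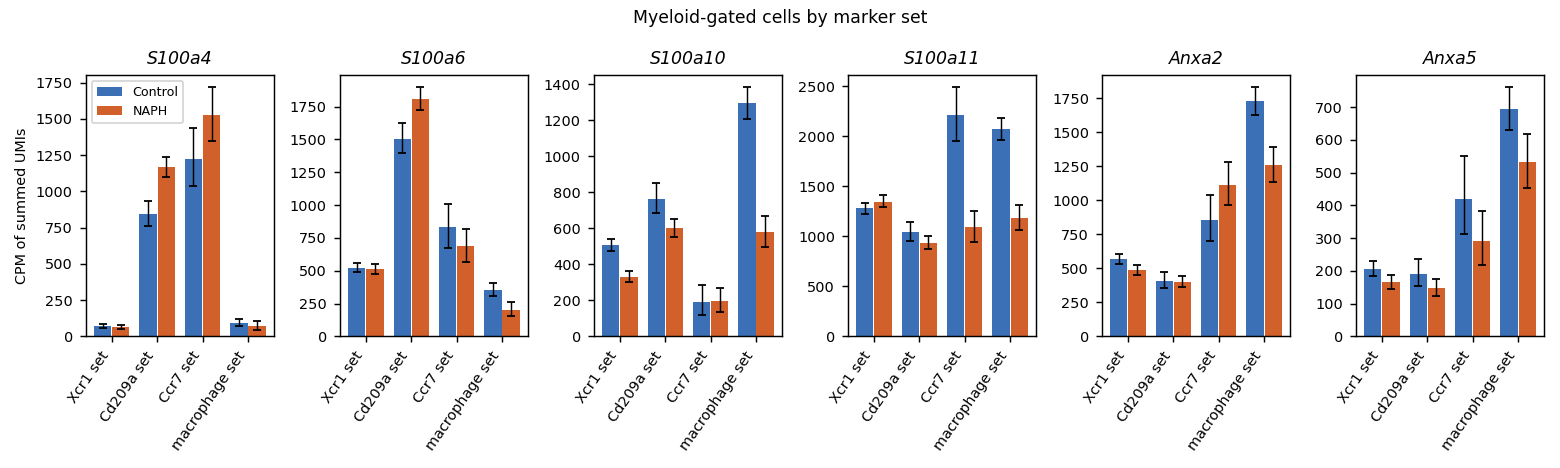
Level of 6 members (CPM of summed UMIs, bars from 0) in myeloid-gated cells of 4 marker sets for Control (blue) and NAPH (orange), with exact 95% Poisson intervals (counting error only). S100a4 is at 846 CPM or more in the Cd209a and Ccr7 sets and at 95.9 CPM or less in the Xcr1 and macrophage sets, while Anxa2, Anxa5 and, in Control, S100a10 peak in the macrophage set. In NAPH the Anxa2 levels of the macrophage and Ccr7 sets are close, at 1260 and 1115 CPM.

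In the macrophage set Anxa2 stood at 1728 and 1260 CPM, Anxa5 at 694 and 532 CPM and S100a10 at 1294 and 580 CPM. Relative to the Xcr1 set, Anxa2 was 2.57 and 2.28 times as high and Anxa5 2.87 and 2.85 times. Between the libraries S100a10 in this set had a ratio of 0.45 (0.38 to 0.53), S100a11 of 0.57 (0.51 to 0.64) and S100a6 of 0.57 (0.42 to 0.76). The Ccr7 set was set apart by Anxa3, at 732 and 749 CPM. The macrophage set held 68.0 and 116 CPM of Anxa3, and the Xcr1 and Cd209a sets at most 37.5 CPM. The Ccr7 set had only 16 and 24 cells.

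Of 11 other S100 genes and 8 other annexins, 10 had enough UMIs in ciliated-gated cells, and 1 of them was called higher, where 12.6% of all genes tested were called higher and 7.39% lower. It was S100b, a calcium sensor best known from glia, at 56.5 and 138 CPM, a ratio of 2.34 (1.77 to 3.14). S100a1, known from muscle and heart, was high in ciliated-gated cells at 1536 and 1105 CPM, and Anxa8 stood at 307 and 293 CPM there. S100a13 (566 and 421 CPM), Anxa11 (219 and 262 CPM), Anxa4 (120 and 177 CPM) and S100a16 (102 and 122 CPM) also passed 100 CPM in this gate and stayed within 1.5-fold. Anxa4 reached its highest Control level in AT2 cells above the split (202 CPM, and 175 CPM in NAPH), and Anxa6 its highest in myeloid-gated cells (159 and 136 CPM). In secretory-gated cells 1 of 8 was called higher (9.71% of all genes), Anxa8, at 9.43 and 46.8 CPM, a ratio of 3.28 (2.68 to 4.02). In AT2 cells below the split 2 of 9 were called higher (6.56% of all genes). These were S100a8 and S100a9, the calprotectin genes of neutrophils, named here after their values were seen. Both had 0 UMIs in Control, which allows up to 0.216 CPM, and 126 and 109 UMIs in NAPH, which is 23.7-fold and 20.5-fold a Control level set at a floor of 3 counts over the gate. The exact intervals of these ratios begin at 19.0 and 16.4. The NAPH cell with the most S100a8 held 54 of its UMIs and the cell with the most S100a9 held 51, while 72 and 56 cells had any. In AT2 cells above the split, where 12.2% of all genes were called lower, 1 of 7 was called lower (Anxa7, named after its values were seen, at 82.5 and 45.7 CPM) and in myeloid-gated cells none of 6 was called. Above against below the split 3 of 7 were called higher in Control (21.6% of all genes) and 2 of 9 higher and 1 lower in NAPH (9.63% and 11.5%). S100a16 was called in both, with ratios of 2.17 (1.54 to 2.98) and 1.85 (1.60 to 2.14). The other calls were S100a1 (1.54) and Anxa7 (1.76) in Control, and Anxa11 (1.53, higher) and S100a9 (0.65, lower) in NAPH.

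Binding partners and related calcium genes, a list of 28, had enough UMIs for 12 to 19 genes per comparison. In ciliated-gated cells 4 of 14 were called higher and 1 lower (12.6% and 7.39% of all genes). Ahnak, the large scaffold that binds the S100a10 and Anxa2 complex, measured 61.9 CPM against 171 CPM, a ratio of 2.64 (2.03 to 3.48). Cacybp, the S100a6-binding protein of a ubiquitin ligase complex, measured 182 CPM against 117 CPM, a ratio of 0.61 (0.50 to 0.75), where S100a6 was higher. The other 3 called higher, named after their values were seen, were Myof, Ager and Capn1, with ratios of 20.2 (5.39 to 170), 3.70 (2.21 to 6.57) and 1.54 (0.89 to 2.75). In secretory-gated cells 2 of 15 were called higher (9.71% of all genes), Ager at 4.19 times (3.95 to 4.45) and Plec, a cytoskeletal linker, at 1.70 times (1.27 to 2.27). Ager encodes a receptor of S100 proteins and is itself a marker of AT1 cells. The AT1 list stood at 317 and 1167 CPM in this gate, with 7 of 7 genes having UMIs in both libraries. In AT2 cells below the split 1 of 17 was called lower (6.51% of all genes), Vdr, the vitamin D receptor, at 6.04 and 4.20 CPM, a ratio of 0.65 (0.48 to 0.88), while S100g, a vitamin D target in the gut, had a ratio of 1.12. In AT2 cells above the split 1 of 12 was called higher and 1 lower (16.4% and 12.2% of all genes). Tspo, a mitochondrial protein, was the lower one, at 858 and 561 CPM, and Pdcd6, named after its values were seen, the higher one, with a ratio of 1.78 (0.98 to 3.52). In myeloid-gated cells 2 of 19 were called higher and 4 lower (6.47% and 6.36% of all genes), with Ager at 2.83 times (2.21 to 3.66) and Plaur, the urokinase receptor, at 0.56 times (0.42 to 0.73). Ager stood at 22.6 and 62.0 CPM there and at 15.5 and 59.8 CPM in ciliated-gated cells, against 1141 and 1505 CPM in AT2 cells below the split. The AT2 tracer Sftpc stood at 2136 and 4445 CPM in myeloid-gated and at 2596 and 5716 CPM in ciliated-gated cells. The part of AT2 RNA in these Ager ratios was not tested. Also called lower in myeloid-gated cells were the formyl peptide receptors Fpr1 and Fpr2, which bind Anxa1 and are named after their values were seen. Their ratios were 0.35 (0.23 to 0.51) and 0.41 (0.28 to 0.59). Myof, a membrane-repair ferlin, was the fourth lower one at 0.67 (0.52 to 0.84), and Tspo the second higher one at 1.61 (1.47 to 1.76). Above against below the split 6 of 16 partners were called higher and 3 lower in Control (21.6% and 25.8% of all genes), and 4 of 18 higher and 1 lower in NAPH (9.63% and 11.5%). In NAPH, Ahnak was 2.40 times as high above the split (2.09 to 2.75) and Plec 1.99 times (1.60 to 2.47). Plaur, chosen after its values were seen, was 26.4 times as high there (15.7 to 45.3), and Capn2, chosen likewise, 1.84 times. Tlr4, the lower one and also named after its values were seen, had an interval of 0.25 to 1.32.

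The genes whose pattern was most like each member were sought by Pearson correlation of log2(CPM + 1) over the 10 gate and library sums, among 4639 genes. For S100g these were Slc34a2 (0.996), the AT2 phosphate transporter, and Lamp3 (0.996), a lamellar body protein. S100a4 was closest to Cd209a (0.984) and Pabpc1 (0.984), S100a10 to Anxa6 (0.981) and Setd3 (0.975), and Anxa2 to Rangap1 (0.982) and Kpnb1 (0.969). For S100a6 the closest genes, Cks2 (0.888) and Ccdc34 (0.871), lay further off than for any other member. The closest to S100a11 were Psmc4 (0.963) and Hspd1 (0.962), to S100a14 Ckap4 (0.964) and Ptgs2 (0.961), to Anxa1 Txnl1 (0.917) and Psmc5 (0.907), and to Anxa5 Camk2d (0.944) and Myl12a (0.942). All points come from the same pair of libraries and the best of many genes were taken, so these values only describe these sums.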

How the data were processed

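Both libraries were Epcam+ lung cells. The deposited files hold whole-number UMI counts per gene and cell, which the authors made with Cell Ranger on mm10, per the submitters' processing notes. The sources used here do not state the version, the annotation or the use of strand. Cells with at least 500 genes, at least 1000 UMIs and at most 20% mitochondrial UMIs were kept. Doublets were scored with scanpy 1.11.5. The caller marked 0.243% and 0.109% of barcodes, so the highest-scoring cells were removed at 0.8% per 1000 barcodes (87 and 108 cells). UMIs were summed per gate and library with Python 3.11.15, numpy 2.4.6 and scipy 1.17.1. Only genes with at least 50 UMIs over both sums were called. Intervals are exact 95% Poisson intervals, and the comparison functions were tested on simulated data. The TMM alternative used edgeR 4.0.16 in R 4.3.3. Positions come from GENCODE and promoters from RefSeq.

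The members and lists were chosen with earlier results of these data known. The 10 members are always named. Other S100 and annexin genes are named at 100 CPM or more in a gate and library. Partners are named among the 2 highest and 2 lowest ratios with at least 50 UMIs in both sums. The 2 genes most like each member are named, except for Anxa3, for which they are not reported here. Genes outside these rules are said to be named after their values were seen.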

Additional observations from a re-analysis of the deposited data

Results flagged for a closer look

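S100a6, Anxa3 and Anxa5 were called higher in NAPH in ciliated-gated cells and lower in AT2 cells above the Areg and Sprr1a split. The log2 ratio in ciliated-gated cells minus that in AT2 cells above the split was 4.2 for S100a6, 2.29 for Anxa3 and 2.05 for Anxa5. The difference between the gates was not tested, because each gate has 1 library per group. The lower call of Anxa3 was lost with TMM scaling (log2 ratio of -0.47) and with doubled gate thresholds (-0.36). The Control side of the AT2 ratio rests on 27 cells.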

How the results depend on the processing

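No paired analysis was possible because each group has 1 library. Of 640 alternative values of the 64 member ratios, 532 moved by less than the counting interval allows, 108 moved by more and 0 called values changed sign, while 9 values short of the threshold did. Counts of called members moved by over 1.5 times under these settings, with the count of secretory-gated cells (4 higher, without S100a6 in thinned cells and without S100a14 with doubled gate thresholds) and of the split in NAPH (8 higher at 2-fold) moving by less. Uncentred CPM ratios gave 9 members higher in secretory-gated cells and 2 lower in myeloid-gated cells. TMM scaling with edgeR gave 2 lower in AT2 cells above the split. A minimum of 1 UMI gave 2 lower in myeloid-gated cells and 0 lower above the split in Control. A 2-fold threshold gave 1 higher in AT2 cells below the split, 0 higher and 2 lower above it, 1 higher in secretory-gated cells, 3 higher in ciliated-gated cells, 0 lower in myeloid-gated cells and 0 lower above against below the split in Control. Thinned cells gave 1 higher in AT2 cells below the split and 2 lower in myeloid-gated cells. The mean of per-cell CPM and doubled gate thresholds each gave 0 lower in myeloid-gated cells. For the fold threshold, the minimum and the uncentred ratios the setting itself moves the count, and for the others the cause was not tested. Leaving out the barcodes present in both libraries, chosen after seeing the data, moved 0 values. The log2 ratio of S100a6 in secretory-gated cells was 0.93 and became 0.23 in thinned cells, and that of S100a4 in AT2 cells below the split went from 1.2 to 3.07. In AT2 cells above the split that of S100a14 went from 0.03 to -1.0 with doubled gate thresholds and to -0.96 in thinned cells. In thinned cells, above against below the split, S100a14 reached 3.12 in Control, and S100a4 went from 1.06 to 1.85 in NAPH. With doubled gate thresholds the log2 ratios above against below the split went from 2.26 to 3.57 for S100a14, 2.99 to 3.83 for Anxa1 and 1.2 to 1.87 for Anxa2 in Control, and from 3.08 to 3.79 for S100a6 and 2.36 to 3.11 for Anxa1 in NAPH. Depth limits S100a4 and S100a14, which had under 50 UMIs in ciliated-gated cells, and AT2 cells above the split in Control, which number 27.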
